A study of Mus musculus with 9 samples.

Results

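Keratins are the proteins of the intermediate filaments of epithelial cells, and the genes examined were 8 that are used to tell the layers of the mammary epithelium apart. Krt7, Krt8, Krt18 and Krt19 mark the luminal layer, which faces the milk space and secretes milk, and Krt5, Krt14, Krt15 and Krt17 mark the basal layer, which holds the contractile myoepithelial cells. The genes were found by their symbols among the 11206 genes that had a row in at least 1 of 9 libraries. Of the 8 keratins, 6 had a row in at least 1 library and 3, Krt8, Krt18 and Krt19, had one in all 9.

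A keratin filament is an obligate copolymer of an acidic type I chain and a basic or neutral type II chain, so each type I gene is known with type II partners. In simple epithelia such as the luminal layer the main pair is Krt8 (type II) with Krt18 (type I), with Krt7 and Krt19 as further chains. In basal cells of stratified and glandular epithelia the pair is Krt5 (type II) with Krt14 (type I). Milk fat globules leave the luminal cell wrapped in its apical membrane and can carry a crescent of its cytoplasm, which is one source of RNA in the fat layer.

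The RNA came from the milk fat of female ICR mice, a CD1 outbred stock, nursing a first litter, with 1 library per dam at lactation day 10. The control diet (n = 5) held 10% of energy as fat and 3.85 kcal per gram, and the high fat diet (n = 4) held 60% and 5.24 kcal per gram, both with 7% of energy as sucrose. Feeding ran from 4 weeks of age, 4 weeks before mating, through pregnancy and lactation. Before mating the mice were caged by 2 with a mate on the same diet, and which dams shared a cage is not stated. The fat was skimmed after centrifugation, mixed with saline and spun again to remove cells and debris, and libraries of total RNA were made with a stranded kit. No genetic change was named for any dam.

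Levels are FPKM, the fragments of a gene scaled by transcript length and by the fragments of the library, so they can be compared between genes per length. The tables hold only genes above 1 FPKM, and a keratin that a library has no row for, here called unlisted, was at or below 1 FPKM. Listed genes numbered 7098 to 8903 in the control libraries and 7974, 5124, 2075 and 4986 in high fat 1 to 4, so high fat 3 stood apart. The deposited confidence bounds lie 2 standard deviations from the value. Read as counting error, they put 64.5 to 4457 fragments behind Krt18, 16.2 to 1196 behind Krt19 and 33.5 to 963 behind Krt8, with the fewest in high fat 3 for each, but only 7.30 to 45.4 behind a listed Krt7 and 16.4 to 36.7 behind a listed Krt14.

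The genes lie in the mouse keratin clusters. By GENCODE M21 (GRCm38), chromosome 15 holds the type II genes Krt7 (chr15:101411043-101430313, plus strand), Krt5 (chr15:101707070-101712898, minus strand) and Krt8 (chr15:101996698-102004482, minus strand), and beside Krt8 the type I gene Krt18 (chr15:102028180-102032027, plus strand). Chromosome 11 holds the other type I genes, Krt15 (chr11:100131758-100135928), Krt19 (chr11:100140810-100148665), Krt14 (chr11:100203162-100207548) and Krt17 (chr11:100256217-100261029), all on the minus strand.

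Some of these transcripts resemble other genes closely enough that fragments could be shared between them. Krt8-ps, a processed pseudogene (chr7:23357125-23358069, plus strand), aligned with the first 941 bases of the Krt8 coding sequence at 98.6% identity, with 13 mismatches and an identical run of up to 299 bases. Of the 50-base windows of that alignment, 57.6% were identical. The stretch below, bases 771 to 920 counted from the first base of the Krt8 start codon in the GENCODE M21 sequences, is shown because it is one of the places where the copies can be told apart, and capitals mark the 6 differences.
Krt8: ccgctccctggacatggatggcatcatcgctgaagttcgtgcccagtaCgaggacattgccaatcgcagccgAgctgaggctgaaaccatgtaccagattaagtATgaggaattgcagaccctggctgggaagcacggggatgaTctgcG
Krt8-ps: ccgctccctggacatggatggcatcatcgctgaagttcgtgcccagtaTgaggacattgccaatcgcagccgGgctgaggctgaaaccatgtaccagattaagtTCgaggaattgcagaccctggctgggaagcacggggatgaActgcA
Most of the stretch is the same in both, so a read that misses the capitals does not tell Krt8 from Krt8-ps, and the level of each is uncertain to that extent.

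Among the basal genes, Krt14 and Krt17 aligned at 89.1% identity over 957 bases. The pair is shown because it carried all of the basal keratin RNA listed in these libraries. The coding stretch below is bases 739 to 828 of the Krt14 transcript and 599 to 688 of the Krt17 transcript in GENCODE M21. It was picked as the most alike 90 bases, and the capital marks its 1 difference. The whole alignment held 102 mismatches, so most of it differs more than this stretch.
Krt14: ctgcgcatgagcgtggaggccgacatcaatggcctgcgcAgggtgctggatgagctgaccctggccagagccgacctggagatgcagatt
Krt17: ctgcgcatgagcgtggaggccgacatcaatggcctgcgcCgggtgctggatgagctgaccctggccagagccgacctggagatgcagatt
Fragments that fall in such stretches could be assigned to either gene. Krt16, 87.0% identical to Krt14, and the Krt18 pseudogenes Gm5200 (90.2%) and Gm17847 (86.4%) were unlisted in all 9 libraries.

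Milk fat RNA held the luminal keratins Krt18, Krt19 and Krt8 at higher levels than the basal keratins, which were at or near the lower limit of the tables. Luminal Krt7 was low too, and in high fat 3 Krt8 and Krt19 stood at only 2.09 and 2.60 FPKM. Krt18 was the most abundant keratin on the control diet at 153 ± 79.6 FPKM (SD, n = 5), followed by Krt19 at 97.7 ± 46.9, Krt8 at 37.7 ± 10.6, Krt7 at 4.64 ± 1.83 and Krt14 at 1.62 ± 0.56. On the high fat diet Krt18 stood at 38.3 ± 38.0 (SD, n = 4), Krt19 at 35.3 ± 32.9 and Krt8 at 12.5 ± 9.90. Krt5 and Krt15 were unlisted in every library. In bulk RNA such as this, fewer cells of a type and less RNA per cell cannot be told apart.

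Part of this order held within each dam. Krt18 and Krt19 each exceeded Krt8 in 9 of 9 libraries, and the deposited bounds of Krt18 and Krt8 were apart in all 9, while those of Krt19 and Krt8 overlapped in high fat 3. Krt8 exceeded Krt7 in 9 of 9. Krt18 and Krt19 had no fixed order, since Krt18 was higher in 6 libraries and Krt19 in 3, and their group ranges overlapped widely. Krt7 exceeded Krt14 in the 7 libraries that listed Krt7, with bounds apart in 3 of the 6 libraries that listed both.

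**Figure D1:**
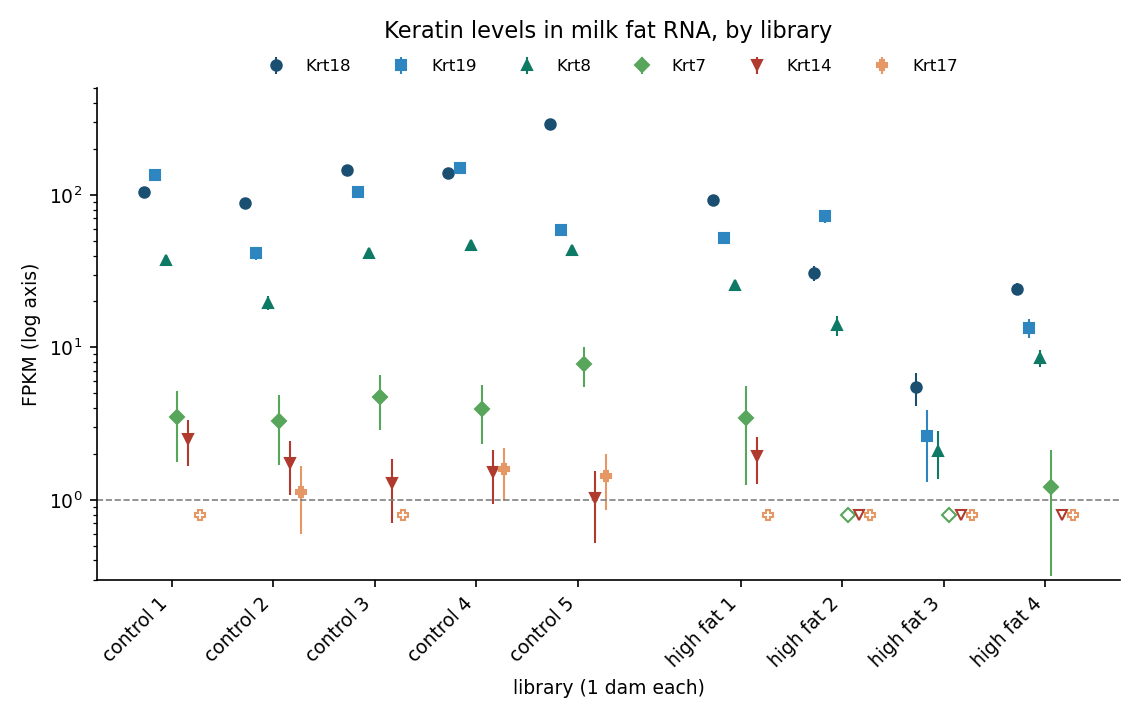
FPKM of the 6 listed keratins in each library on a log axis, with the deposited lower and upper bounds as bars; open symbols below the dashed line at 1 FPKM stand for unlisted genes and are placed at an arbitrary height. Krt18, Krt19 and Krt8 are at the top in every library, Krt14 and Krt17 lie at 1.03 to 2.50 FPKM where listed, and high fat 3 has the lowest luminal values.

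Krt18, the type I partner of Krt8 in the luminal layer, stood at 105, 89.0, 145, 139 and 289 FPKM in control 1 to 5 and at 93.1, 30.6, 5.45 and 24.1 in high fat 1 to 4. Control 5 was the highest by a wide margin and high fat 3 the lowest, and the groups overlapped only because high fat 1 lay just above control 2. The log2 fold change on the scale of FPKM + 1, high fat minus control, was −2.42 (SE 0.85, 95% interval −4.12 to −0.73), and Krt18 fell by limma's moderated test (Benjamini-Hochberg adjusted p = 0.0403 over 7983 genes). A gene is called changed here at an adjusted p of at most 0.05.

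Krt8, the type II partner, stood at 37.6, 19.7, 41.5, 46.7 and 43.2 FPKM in control 1 to 5 and at 25.5, 14.0, 2.09 and 8.52 in high fat 1 to 4. High fat 2, 3 and 4 lay below every control and high fat 1 between control 2 and the rest, so the groups overlapped. Its log2 fold change was −1.84 (SE 0.75, 95% interval −3.33 to −0.35) and it did not pass the test (limma adjusted p = 0.0582).

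The pseudogene Krt8-ps, at 26.6, 13.6, 32.4, 37.0 and 36.5 FPKM in control 1 to 5 and 19.6, 5.45, 1.86 and 6.95 in high fat 1 to 4, ran close to its parent. Its ratio to Krt8 lay between 0.692 and 0.847 in the control libraries and at 0.771, 0.390, 0.888 and 0.816 in high fat 1 to 4, so high fat 2 alone had a ratio far below the others. Krt8-ps passed the threshold (log2 fold change −1.95, limma adjusted p = 0.0450) where Krt8 narrowly missed it, and the difference between the copies was not tested. With the FPKM of both summed, an alternative added after seeing the data, the log2 fold change was −1.96 with an adjusted p of 0.0578.

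Krt19, a type I keratin that lacks the usual tail domain and is found in simple epithelia, stood at 135, 41.4, 105, 149 and 58.4 FPKM in control 1 to 5 and at 52.5, 72.7, 2.60 and 13.5 in high fat 1 to 4. Its spread within the control group was wide, and high fat 1 and 2 both lay inside the control range while high fat 3 and 4 lay below it. The log2 fold change was −2.06 (SE 0.84, 95% interval −3.73 to −0.38), which did not pass the test (limma adjusted p = 0.0598).

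Krt7, a type II keratin of ducts and glands, was far lower, at 3.49, 3.27, 4.73, 3.96 and 7.77 FPKM in control 1 to 5, 3.42 in high fat 1 and 1.22 in high fat 4. It was unlisted in high fat 2 and 3, and high fat 1 lay inside the control range. With unlisted values at 0, its log2 fold change was −1.62 (SE 0.54, 95% interval −2.69 to −0.56), which passed the threshold (limma adjusted p = 0.0341). Krt7 entered the test through the control libraries alone, so this call is given as a value and not read as a fall. Its low level makes this fold change depend on how unlisted values are set, and with a floor of 1 FPKM it was −1.12 with an adjusted p of 0.0635.

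Basal keratin RNA was sparse. Krt14, the type I keratin of basal and myoepithelial cells, stood at 2.50, 1.75, 1.28, 1.53 and 1.03 FPKM in control 1 to 5 and at 1.92 in high fat 1. It was unlisted in high fat 2, 3 and 4, and the 1 listed high fat value lay inside the control range. Its log2 fold change was −0.98 (SE 0.44, 95% interval −1.86 to −0.10) and did not pass the test (limma adjusted p = 0.0790). With unlisted values at a floor of 1 FPKM it was −0.23.

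Krt17, a type I keratin of basal cells and skin appendages that is induced in injured epithelium, was listed only in control 2, 4 and 5, at 1.13, 1.59 and 1.43 FPKM. It was unlisted in the other 6 libraries and was below the filter of 4 libraries, so it was not tested. Krt5, the type II partner of Krt14, and Krt15, a type I keratin of basal cells, were at or below 1 FPKM throughout and had no value to compare. Krt14 was therefore listed in 6 libraries that did not list its usual partner.

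Among the 5 keratins tested, Krt18 and Krt7 were called lower and none was called higher. Over all genes, 1662 of 7983 genes, 20.8%, were called lower and 0 higher by limma, and before adjustment 3952 lower and 5 higher genes had a p under 0.05. Krt7 and Krt14 entered the test through the control libraries alone, so the count over keratins is read no further. The same holds for each gene named further on that is unlisted in a high fat library and called lower, such as Cldn4, Cldn3, Hspb1 and Hspa1b. In 11.1% of tested genes every control library exceeded every high fat library, and none of the 5 keratins was among them.

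The median gene had a log2 fold change of −1.08, so the keratins are best read against it. Relative to that median Krt18 stood at −1.35, Krt19 at −0.98, Krt8 at −0.76, Krt7 at −0.54 and Krt14 at 0.10. Krt18, Krt19 and Krt8, listed in all 9 libraries, were thus below the median gene. The place of Krt14 is set by how unlisted values are treated: it was −0.23 against a median of −0.71 with a floor of 1 FPKM and −2.96 against −2.09 with a pseudocount of 0.1. The 95% intervals of all 5 fold changes included the median. Of all tested genes, 1.35% had a lower log2 fold change than Krt18.

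**Figure D2:**
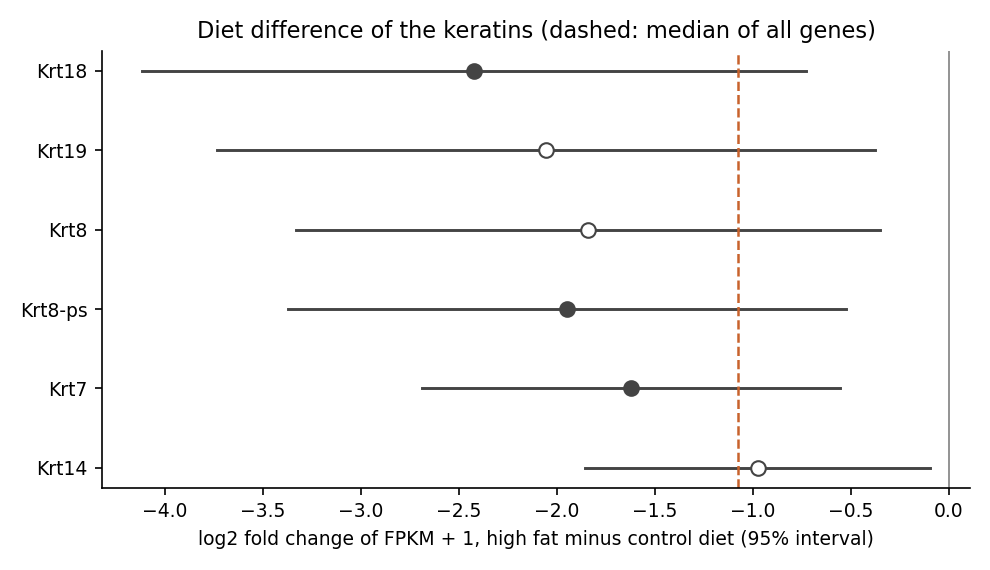
Log2 fold change of FPKM + 1, high fat minus control diet, with its 95% interval from limma for the 5 tested keratins and Krt8-ps; filled circles passed an adjusted p of 0.05, and the dashed line is the median of all tested genes at −1.08. All 6 values are below 0, and all 6 intervals cross the dashed line.

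The calls on Krt18 and Krt7 depended on some scalings of the libraries, on single dams and on the treatment of low and unlisted genes. Krt18, at an unchanged −2.42, lost its call with unlisted genes at a floor of 1 FPKM (limma adjusted p = 0.0664). So it did with genes listed in at least 1 library (0.0795) or in all 9 (0.0802), and with no mean-variance trend (0.0595). Krt18 lost its call with a pseudocount of 0.1 (−2.49, 0.0588) and kept it with 0.5 (−2.46, 0.0419). With each library scaled to 1 sum of FPKM both calls held (Krt18 −1.95, adjusted p = 0.0365, and Krt7 −1.63, adjusted p = 0.0395). Under median-of-ratios scaling, which moved the median gene to −0.55, Krt18 was −1.22 (adjusted p = 0.163) and Krt7 −1.19 (adjusted p = 0.235), and under quantile normalization Krt18 was −1.07 (adjusted p = 0.629) and Krt7 −0.78 (adjusted p = 0.641). Leaving out 1 dam at a time gave Krt18 values of −3.04 to −1.75. Krt18 kept its call without control 2 (adjusted p = 0.0346) or high fat 1 (0.00754) and lost it without control 1, 3, 4 or 5 (0.0512, 0.0962, 0.0780 and 0.0873) or high fat 2, 3 or 4 (0.0797, 0.128 and 0.0981). Krt7, at −2.06 to −1.35, kept its call without control 1 or 2 or high fat 1 (0.0487, 0.0374 and 0.00329) and lost it without control 3, 4 or 5 (0.0917, 0.0672 and 0.0832) or high fat 2, 3 or 4 (0.0969, 0.117 and 0.0692). Without high fat 1, Krt8, Krt19 and Krt14 also passed (adjusted p = 0.0142, 0.0260 and 0.00443), and without control 2 Krt8 did (0.0438). Over all alternatives, the adjusted p of Krt18 ran from 0.000648 to 0.629 and that of Krt7 from 0.00120 to 0.641.

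The balance of luminal to basal keratin does not depend on the scale of a library where every keratin is listed. No library listed every basal keratin, so the bounds given below do depend on it. The 4 luminal keratins summed to 281, 153, 296, 339 and 399 FPKM in control 1 to 5 and to 174, 117, 10.1 and 47.3 in high fat 1 to 4. The listed basal keratins summed to 2.50, 2.88, 1.28, 3.12 and 2.46 FPKM in control 1 to 5, to 1.92 in high fat 1 and to nothing listed in high fat 2 to 4. In every library, then, luminal keratin exceeded basal keratin.

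Because an unlisted gene may stand anywhere up to 1 FPKM, only a lower bound of the ratio can be given. With every unlisted basal keratin counted at 1 FPKM, luminal exceeded basal keratin by at least 51.1, 31.4, 69.0, 66.2 and 89.4 times in control 1 to 5 and by at least 35.4, 29.3, 2.54 and 11.8 times in high fat 1 to 4. The luminal share of this keratin RNA was at least 96.9% in each control library and at least 71.7% in each high fat library. The low bounds of high fat 3 and 4 follow their low luminal sums, since the basal ceiling was 4.00 FPKM there, so a difference in balance between the diets was not detectable with these tables.

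**Figure D3:**
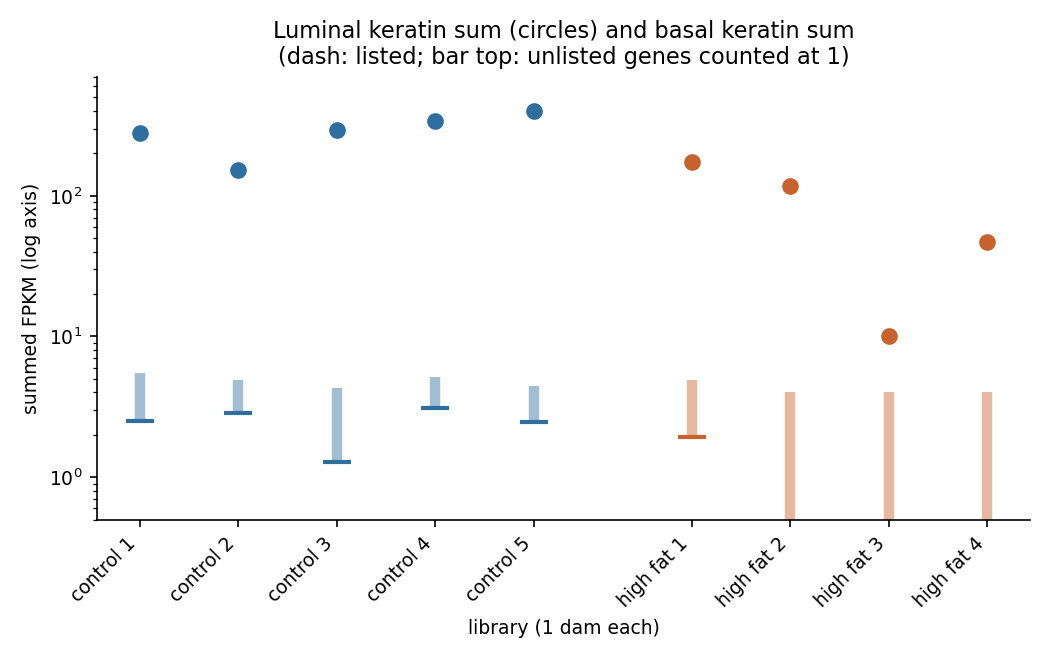
Summed FPKM per library on a log axis, blue for the control diet and orange for the high fat diet; circles are the 4 luminal keratins, dashes the listed basal keratins, and the bar above reaches the level with each unlisted basal keratin at 1 FPKM. The luminal sum lies above the basal ceiling in all 9 libraries, and closest in high fat 3 at 10.1 against 4.00 FPKM.

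The make-up of the luminal keratin RNA varied widely between dams, and the ranges of the diets overlapped for each keratin. Krt18 made up 37.3% to 72.6% of the luminal sum in the control libraries and 26.1% to 53.8% in the high fat libraries. Krt8 kept a narrower share, 10.8% to 14.1% and 11.9% to 20.6%. The ratio of Krt18 to Krt8, the pair of the simple epithelium, was 2.79 to 6.71 in control libraries and 2.19 to 3.66 in high fat libraries. Type I exceeded type II luminal keratin RNA by 5.39 to 6.83 times in the controls and by 3.85 to 7.38 times in the high fat group, or 3.17 to 3.98 and 2.04 to 5.31 times with Krt8-ps counted as type II.

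Krt18 and Krt19 varied apart from each other. Their ratio was 0.775, 2.15, 1.38, 0.932 and 4.96 in control 1 to 5 and 1.77, 0.421, 2.10 and 1.79 in high fat 1 to 4. Control 5 was richest in Krt18 relative to Krt19 and high fat 2 richest in Krt19, and the groups overlapped in part: high fat 2 lay below every control, and control 2 and 5 lay above every high fat library. The mean log2 ratio was 0.68 ± 1.07 (SD, n = 5) on the control diet and 0.37 ± 1.08 (SD, n = 4) on the high fat diet.

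**Figure D4:**
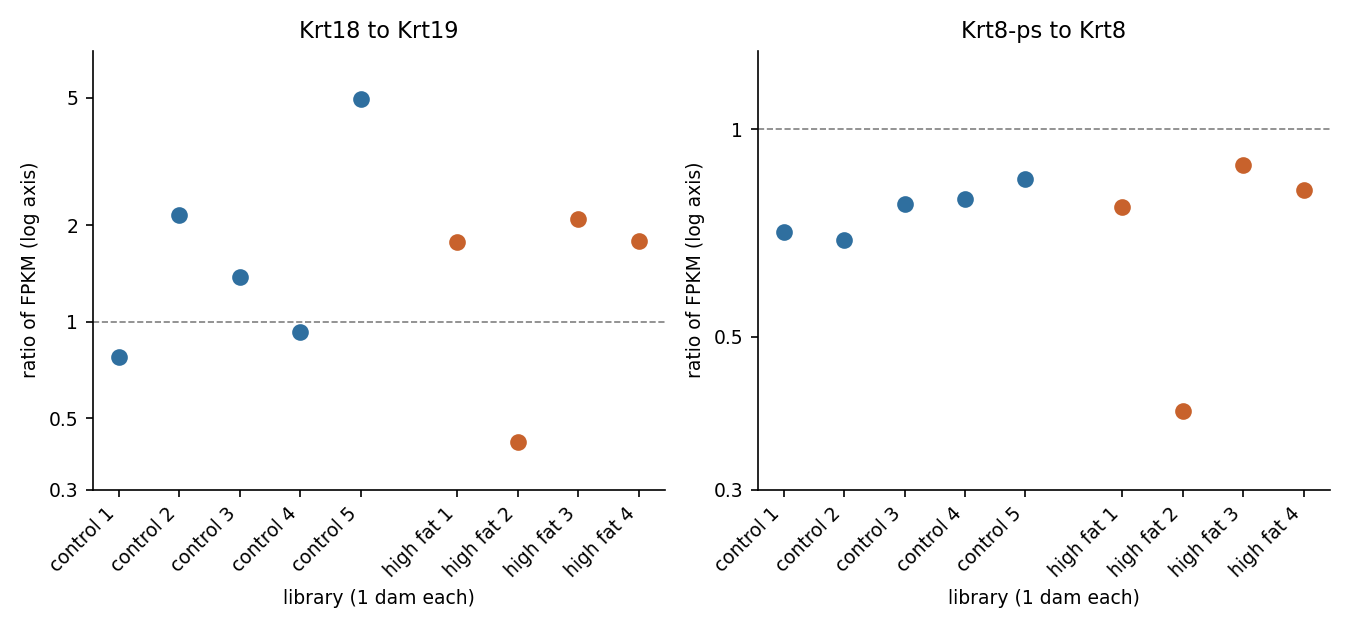
Ratio of Krt18 to Krt19 (left) and of Krt8-ps to Krt8 (right) in each library, on log axes, blue for the control diet and orange for the high fat diet; the dashed line marks equal FPKM. Control 5 is highest on the left at 4.96, and high fat 2 is lowest in both panels, at 0.421 and 0.390.

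Ranks within a library gave another view of the spread. Among the 1847 genes listed in all 9 libraries, Krt18 ranked at the 83.9th to 95.8th percentile in controls and the 78.4th to 87.6th in the high fat group. Krt19, for all its spread in FPKM, kept to the 86.6th to 88.8th percentile in all 5 controls and ran to 80.6, 91.2, 57.4 and 74.8 in high fat 1 to 4. Krt8 ranged from 63.6 to 83.4 and from 48.0 to 66.4. Unlike FPKM, ranks do not move with the scale of a library.

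Likeness between genes was measured as Pearson's r of log2 FPKM over the 9 libraries, after subtracting each library's median over those 1847 genes, and is a description of points that share libraries. The 5 genes most like Krt18 were Gm12966 (0.98) and Gm12183 (0.97), both processed pseudogenes, Ubb (0.96, a ubiquitin gene), Sqstm1 (0.96, the autophagy receptor p62) and Krt8 (0.96). Krt8 was thus 5th of 1846 genes. Without control 5 and high fat 3, the libraries farthest from the median of Krt18, its r with Krt18 was 0.89. Krt19, by contrast, was 330th with an r of 0.39, or −0.03 without those libraries, and its Spearman's rho was 0.08.

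Krt19 had other close genes, found in a search added after its values were seen. They were Gm10359, Gm10800, Gm10718, Gm21738 and Gm26870, at r of 0.98 to 0.99. Of these, Gm10359 is annotated as a processed pseudogene and Gm26870 as a long noncoding RNA. Without high fat 3 and 4, the libraries farthest from the median of Krt19, their r with Krt19 was 0.86 to 0.92. No such search was made for Krt14, the most abundant basal member, because it was unlisted in 3 libraries.

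Most other markers of the luminal layer were listed in milk fat RNA, some of them only near the lower limit. Of 20 luminal markers other than the keratins, 17 were listed in at least 1 library, 12 to 15 in each control library and 5 to 13 in each high fat library, and their FPKM summed to 207 to 524 and 40.2 to 298. Elf5, the transcription factor of the secretory alveolar lineage, was the most abundant, at 250, 69.8, 203, 270 and 65.3 FPKM in control 1 to 5 and at 142, 113, 19.3 and 46.4 in high fat 1 to 4. Cd24a, a surface glycoprotein of epithelial cells, was next. Both Elf5 and Cd24a overlapped between the diets and neither passed the test (limma adjusted p = 0.216 and 0.140). Prom1, Foxa1 and Pgr were unlisted in every library. Kit, Aldh1a3 and Tspan8 were each listed in 1 control library only, at 1.06, 1.01 and 1.08 FPKM.

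Of the 13 luminal markers tested, 6 were called lower, 7 did not pass and none rose, against 20.8% of all genes called lower. Their median log2 fold change was −1.44 against −1.08 for all genes. Only 5 of the 20 luminal markers were listed in all 9 libraries. The other tested markers were each unlisted in at least 1 high fat library and entered the test through the controls. The count and the median are therefore read no further. The smallest p-values were those of Cldn4 and Cldn3, claudins of the tight junctions that seal the luminal layer, at −3.06 (limma adjusted p = 0.00865) and −2.64 (0.0110). Cldn4 stood at 7.51, 26.9, 43.2, 14.6 and 72.6 FPKM in control 1 to 5, at 9.50, 1.60 and 2.46 in high fat 1, 2 and 4, and was unlisted in high fat 3. As with Krt18, control 5 was the highest library and high fat 1 reached into the control range.

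The luminal markers did not share 1 order of dams. Epcam, an adhesion molecule of epithelial cells, was at 8.46, 15.6, 22.6, 12.7 and 36.2 FPKM in control 1 to 5, highest where Elf5 was lowest. The ratio of Epcam to Elf5 was 0.034, 0.22, 0.11, 0.047 and 0.55 in control 1 to 5, which is the same order of dams as the ratio of Krt18 to Krt19 above. In high fat 1, 2 and 4 it was 0.051, 0.014 and 0.084, lowest in high fat 2 as for the keratins, and Epcam was unlisted in high fat 3. This pair was chosen after its values were seen, and no test was made of it.

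Markers of the basal layer were mixed. Of 20 basal markers other than the keratins, 10 were listed in at least 1 library, 5 to 8 in each control library and 2 to 5 in each high fat library, and their FPKM summed to 14.5 to 33.7 and 4.17 to 15.4. Trp63, the transcription factor of the basal lineage, the smooth muscle genes Myh11, Mylk and Actg2, and the oxytocin receptor gene Oxtr were unlisted in all 9 libraries, as were Krt5 and Krt15. Acta2, smooth muscle actin, was listed in 8 libraries, at 2.94 to 6.47 FPKM in the controls and at 4.14, 1.63 and 3.45 in high fat 1, 2 and 4. Tagln, another gene of the basal list, was listed in the same libraries. It stood at 3.20 to 4.52 FPKM in the controls and at 3.12, 1.51 and 2.51 in high fat 1, 2 and 4.

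Among the 7 basal markers tested, 2 were called lower, 5 did not pass and none rose, a share near the 20.8% of all genes, and their median of −1.02 was close to that of all genes. The 2 were Itgb4, a hemidesmosome integrin, at −1.35 (limma adjusted p = 0.0314), and Egfr, the epidermal growth factor receptor, at −1.31 (0.0420). Both were low, with Itgb4 listed only in control 2 to 5, at 1.18 to 3.61 FPKM, and Egfr at 1.17 to 4.52 in those libraries and 1.10 in high fat 1. Both entered the test through the control libraries alone, so nothing more is read from their calls. Itga6, the integrin partner of Itgb4, was the most abundant basal marker and did not pass (−1.16, adjusted p = 0.0941), nor did Acta2 (−1.02, adjusted p = 0.125).

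**Figure D5:**
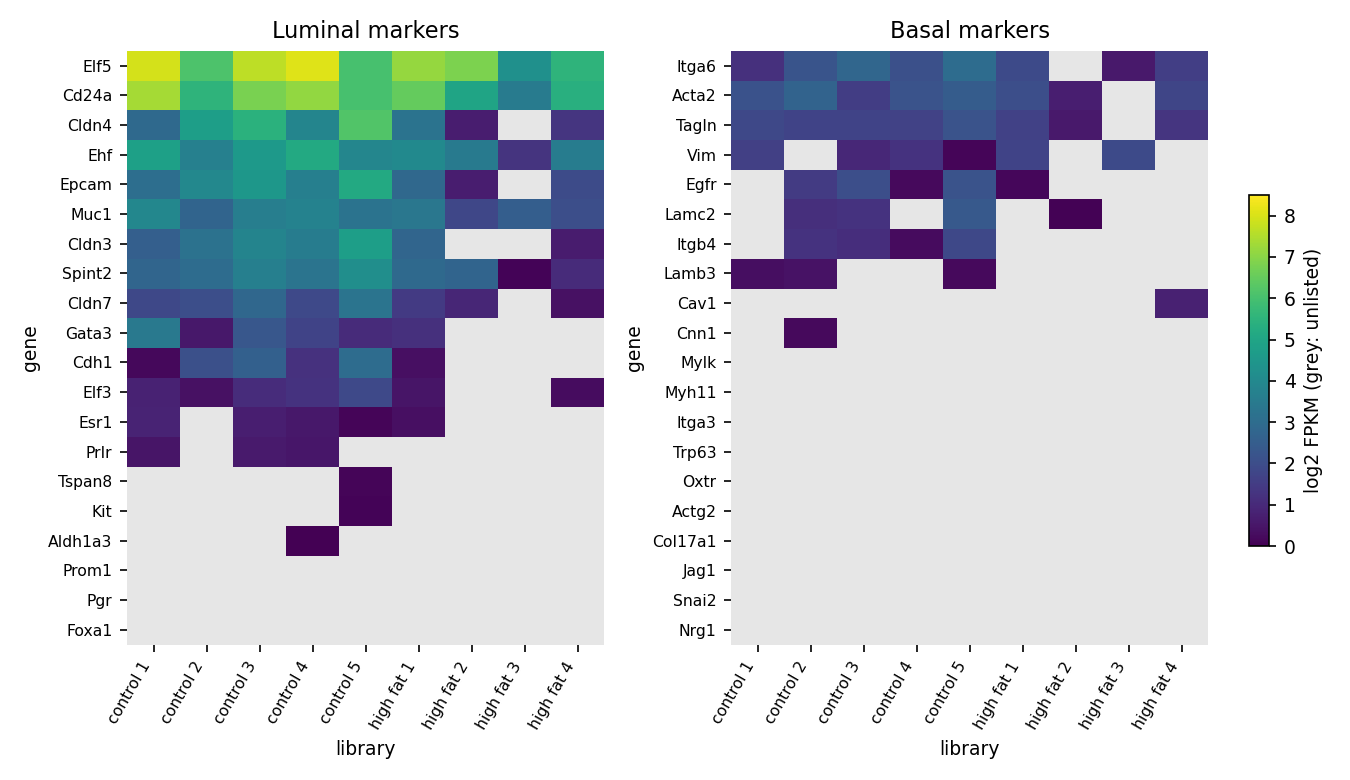
Log2 FPKM of 20 luminal markers (left) and 20 basal markers (right) other than the keratins, in each library; rows are ordered by mean FPKM and grey cells are unlisted. Luminal markers reach 270 FPKM and 17 of them are listed somewhere, while 10 basal markers are grey in every library.

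Few other keratins were listed. Of 49 protein-coding keratin genes in the annotation, 8 were listed in at least 1 library, and the only ones outside the luminal and basal sets were Krt10 and Krt80. Krt10, the type I keratin of the outer epidermis, was listed in control 1 (2.44 FPKM), control 4 (2.03) and high fat 1 (1.55), and Krt80, a type II keratin, in control 5 (1.42). Krt1, the epidermal partner of Krt10, was unlisted throughout.

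Of 20 epidermal markers, 6 were listed somewhere, with 2 to 3 in each control library and 0 to 6 in each high fat library. The 2 that were tested, Sbsn (suprabasin) and Dmkn (dermokine), were both called lower, at −2.59 and −2.06 with a limma adjusted p of 0.0161 for each, against 20.8% of all genes. For both, every control library exceeded every high fat library, as for 11.1% of all genes. Both entered the test through the control libraries, with Dmkn listed in 1 high fat library and Sbsn in 3. Sbsn stood at 5.90, 15.0, 23.2, 13.1 and 49.6 FPKM in control 1 to 5, highest in control 5 as Krt18 was. Their part in the keratin values was not tested.

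Genes that anchor or regulate keratin filaments gave mixed results. Of 11 tested desmosome and linker genes 3 were called lower, 8 did not pass and none rose, a share near the 20.8% of all genes, with a median of −1.13. Dsp, desmoplakin, which ties keratin filaments to desmosomes, was called lower (−2.11, limma adjusted p = 0.0186), as was Ppl, periplakin (−1.67, 0.0161). Ppl was listed at 1.75 to 3.71 FPKM in the controls and in no high fat library. Ppl and Dsp entered the test through the control libraries alone, so these calls are not read as falls. The most abundant, Dst, a cytoskeletal linker, and Jup, plakoglobin, did not pass (−1.15 and −1.58, adjusted p = 0.166 and 0.0761).

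Of 17 tested regulators and partners of intermediate filaments, 5 were called lower, 12 did not pass and none rose, a share near the 20.8% of all genes, with a median of −1.39. Hspb1, a small heat shock protein that binds intermediate filaments, had a log2 fold change of −2.87 (limma adjusted p = 0.00295). Hspa1b, an inducible heat shock protein, had one of −3.11 (0.0102). Both entered the test through the control libraries, so these calls are not read as falls. Hspb1 stood at 4.82, 10.9, 15.7, 5.57 and 27.9 FPKM in control 1 to 5, at 2.13 in high fat 1 and 1.11 in high fat 4, and was unlisted in high fat 2 and 3. Its groups did not overlap, as for 11.1% of all genes, and control 5 was again the highest. The abundant chaperone gene Hspa8 and the 14-3-3 gene Ywhae did not pass (−1.82 and −1.39, adjusted p = 0.0666 and 0.125).

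Genes of milk secretion were at far higher levels than the keratins. All 15 were listed in all 9 libraries, summing to 22935 to 49591 FPKM in the controls and 7490 to 65643 in the high fat group. Of the 15, 0 were called lower or higher, against 20.8% of all genes called lower, with a median log2 fold change of −0.95. The 20.8% takes in genes with unlisted values at 0. When only the 1847 genes listed in all 9 libraries were fitted, 15 of them, 0.812%, were called lower. The count of 0 is therefore read no further. The most abundant were Wap, whey acidic protein (−1.04, limma adjusted p = 0.244), and the casein gene Csn1s2b (−0.61, 0.487). The smallest p-values were those of Cel, an enzyme of milk fat digestion (−1.59, 0.105), and the casein gene Csn1s1 (−1.52, 0.148).

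Markers of other cell types were low or absent, except for leukocyte genes in high fat 1 and 3. All 8 fibroblast and all 6 adipocyte markers were unlisted in all 9 libraries, and 1 of 6 endothelial markers was listed, in 1 control library at 1.10 FPKM. Of 12 leukocyte markers 8 were listed somewhere, and their FPKM summed to 4.44 to 24.8 in the controls and to 0 to 107 in the high fat libraries. The sum was highest in high fat 1 and next in high fat 3, at 36.2 FPKM, both above every control. In high fat 3 the macrophage gene Lyz2 stood at 22.4 FPKM and Cd74, of antigen-presenting cells, at 9.91, beside a luminal keratin sum of 10.1. In high fat 1 the neutrophil genes S100a8 and S100a9 stood at 40.9 and 48.3 FPKM against at most 14.3 and 2.76 in the controls. High fat 1 is also the high fat library with the highest Krt18, Krt8 and Krt7 and the only one that listed Krt14, and high fat 3 the one with the lowest luminal keratins; the part of other cells in those values was not tested. None of the 4 leukocyte genes tested passed, including S100a8 (−1.44, limma adjusted p = 0.0811), S100a9 (0.05, 0.934) and Tyrobp (0.64, 0.265), and their median was −0.01.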

How the data were processed

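Total RNA from milk fat was measured in 9 libraries, 5 on a control and 4 on a high fat diet, grouped by the titles. Per the file headers, the authors deposited 1 table per library of FPKM per gene with its confidence bounds. The submitters' processing notes name Trimmomatic and FastQC, the aligners TopHat and Bowtie2, and Cufflinks, DESeq2 and HTSeq. For versions, strand setting and build, the sources used here give nothing. Of 11206 identifiers 11165 were in GENCODE M21 and 9309 had its bounds, so coordinates are read as GRCm38. For 6 repeated genes the highest FPKM was kept, and 2 blank rows were dropped. FPKM keeps no total, so depth was read only from the bounds. These were taken as counting error, so the fragments given are approximate, and they do not cover the spread between dams.

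A linear model on log2(FPKM + 1) was fitted by limma 3.58.1 (R 4.3.3), unlisted genes at 0, for the 7983 genes that reached 1 FPKM in 4 libraries or more, with a mean-variance trend, diet as the only term and Benjamini-Hochberg adjustment over all of them. Adding 1 shrinks the fold changes of low genes, while setting unlisted values to 0 can widen them. For Krt14 the value was −0.98 in this fit and −0.23 with unlisted genes at a floor of 1 FPKM. The fit was also run on simulated data, drawn for each gene on its own with no shift shared across a library. That run therefore says nothing about libraries with few listed genes. P-values set the diet difference against a spread between these dams that limma pools over genes of like level. They do not rest on the spread of each gene alone. With no mean-variance trend 11 genes were called lower, against 1662 with it.

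Genes were named by a rule: the 8 keratins, the most abundant other keratins, the 2 most abundant and the 2 of smallest p in each list, and the 5 genes most like the most abundant keratin; other list genes were named after their values were seen. The keratins and lists were chosen with earlier results of these data known. Alternatives changed the pseudocount, floor, filter, scaling, weights, variance model, block and libraries used.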

Additional observations from a re-analysis of the deposited data

Results flagged for a closer look

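Krt18 in control 5, at 289 FPKM, stood apart from the other control libraries, which ran from 89.0 to 145. The gap to the next library was 0.722 of the group's whole range, above the 95% limit of Dixon's test for 5 samples. It was the only one of 22 groups of values examined to do so, and chance gives about 1 in 20. Krt7, Krt8-ps and Krt8 in the same library were at 7.77, 36.5 and 43.2 FPKM, and Krt19 was at 58.4, below 3 of the other controls.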

How the results depend on the processing

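No keratin changed direction under any alternative. Krt18 kept its call in 6 of 23 alternatives and Krt7 in 7 of 22, and Krt8, Krt19 and Krt14 passed in 3 of 23, 2 of 23 and 2 of 22. The count of genes called lower, 1662, was 145 with a pseudocount of 0.1, 87 with unlisted genes at a floor of 1, 13 with genes listed in at least 1 library, 15 with genes listed in all 9, 11 with no variance trend, 0 under median-of-ratios scaling and 0 under quantile normalization. With library weights 6714 were lower and 13 higher. Leaving out 1 library gave 17 to 5259 lower and 0 to 2 higher: 986, 2228, 182, 423 and 333 lower without control 1 to 5, and 5259, 72, 17 and 157 without high fat 1 to 4. Without high fat 2 and 3 together 0 were called, and Krt18 was −1.54 (adjusted p = 0.375). The cause was not tested.

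Same-numbered libraries showed no clear pairing: their deviations had correlations of 0.14, −0.28, 0.04 and −0.09. Those of differently numbered libraries ran from −0.28 to 0.31. So few values cannot exclude a pairing of the dams. With the replicate block, replicates 1 to 4, 35 genes were lower, against 333 for the same libraries with no block, a comparison added after seeing the data, as was the sum of Krt8 and Krt8-ps. Those libraries are all except control 5, so the fit with no block repeats the one without control 5. The counts of alternatives above include it under both names. The control mean of the log2 luminal to basal ratio, at least 5.86, was 6.50 when only Krt18 and Krt14 were compared. Values near 1 FPKM limit Krt7, Krt14 and Krt17.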
